A study of Mus musculus with 9 samples.

Results

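Genes that mark melanocytes and the neural crest were followed in cultured mouse fibroblasts as a check for cells of the pigment lineage. The 10 genes were chosen by name, as genes of this lineage, with earlier results of these data known. They are the transcription factors Sox10, Pax3, Tfap2a, Sox9 and Mitf, the receptor gene Kit, and the pigment genes Tyr, Dct, Pmel and Mlana, and all 10 were found by Ensembl identifier among 51912 genes. RNA-seq libraries came in 3 groups of 3. The bcatKO_CAF group was cancer-associated fibroblasts, fibroblasts of the tumour stroma, with the genotype beta-catenin -/-. The CAF group was cancer-associated fibroblasts of wild type genotype, and the NF group was normal fibroblasts of wild type genotype. All were of strain C57BL/6 and were cultured in DMEM with serum. The labels used here name neither the tumour, the tissue of origin, the age of the mice nor the means by which beta-catenin was deleted.

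The neural crest is an embryonic cell population that leaves the dorsal neural tube and gives rise to melanocytes, Schwann cells and other glia, peripheral neurons, and much of the connective tissue and skeleton of the face. Tfap2a, Pax3, Sox9 and Sox10 act at successive steps of its specification, but each also works elsewhere, Sox9 in cartilage and hair follicles, Tfap2a in skin epithelium and Pax3 in muscle precursors. In cells that become melanocytes, Sox10 and Pax3 activate Mitf, the factor that switches on the enzymes and structural proteins of the melanosome, the organelle in which melanin is made.

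Libraries held 15433810 to 21893574 counts in total, and 14314 genes were tested. Levels are given in CPM, counts divided by library size after correction with the trimmed mean of M-values (TMM). A count of 3, used as the floor, corresponds to 0.128 to 0.193 CPM in single libraries. The labels do not state whether replicates are separate cultures or animals, and p-values here cover no more than the spread of these libraries, which may be technical. Ctnnb1, the beta-catenin gene, lay between 627 and 668 CPM in bcatKO_CAF, between 855 and 882 CPM in CAF and between 669 and 799 CPM in NF. Whole-gene counts do not show which exons were deleted. NF replicate 1 stood apart from its group: over all tested genes its log2 CPM correlated with the 3 bcatKO_CAF libraries at r between 0.988 and 0.993, and with the other NF libraries at r of 0.942 and 0.956. NF replicates 2 and 3 also correlated with the bcatKO_CAF libraries, at r between 0.93 and 0.969. The CAF libraries were further from both groups. Their r was between 0.813 and 0.833 with bcatKO_CAF and between 0.813 and 0.826 with NF replicates 2 and 3. The values of NF replicate 1 thus go against its label. The identity of the libraries was not tested, and the group names used here are those of the labels. Without NF replicate 1, the log2 fold changes for CAF against NF were -6.22 for Tfap2a, -2.85 for Pax3 and -2.24 for Sox9 (edgeR adjusted p 3.22e-06, 0.000348 and 7.1e-06). Of the fibroblast markers, Thy1, a surface protein of many fibroblasts, averaged 0.239 ± 0.209 CPM in bcatKO_CAF, 1960.1 ± 217 CPM in CAF and 0.389 ± 0.309 CPM in NF (SD, n = 3 each). Vim, an intermediate filament gene of mesenchymal cells, averaged 5387 ± 391 CPM in bcatKO_CAF, 5246 ± 529.9 CPM in CAF and 4712 ± 775 CPM in NF. Pdgfra, another of the fibroblast markers, averaged 301 ± 33.1 CPM in bcatKO_CAF, 577 ± 68.1 CPM in CAF and 279 ± 79.3 CPM in NF. Fn1, the fibronectin gene, averaged 5789 ± 2019.7 CPM in bcatKO_CAF and 7386 ± 988 CPM in CAF. In NF replicates 1 to 3, Fn1 was 6885, 1563 and 726 CPM. The bcatKO_CAF and NF libraries thus held almost no Thy1, while Vim was abundant in all 3 groups.

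The pigment program was at or near the detection limit in all 9 libraries, whereas 3 crest transcription factors were lower in CAF than in NF and higher in bcatKO_CAF than in CAF. These were Tfap2a, Pax3 and Sox9, of 6 tested. Over all tested genes, 19.9% were called lower in CAF than in NF and 21.5% higher in bcatKO_CAF than in CAF. Mitf was also higher in bcatKO_CAF than in CAF. Sox10 was scarce in bcatKO_CAF and uneven in CAF and NF. Expression could be tested for 6 of the 10 genes, since Kit, Tyr, Dct and Mlana had too few counts to pass the filter on low values. In whole cultures, fewer cells of a type and less RNA per cell cannot be told apart.

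**Figure D1:**
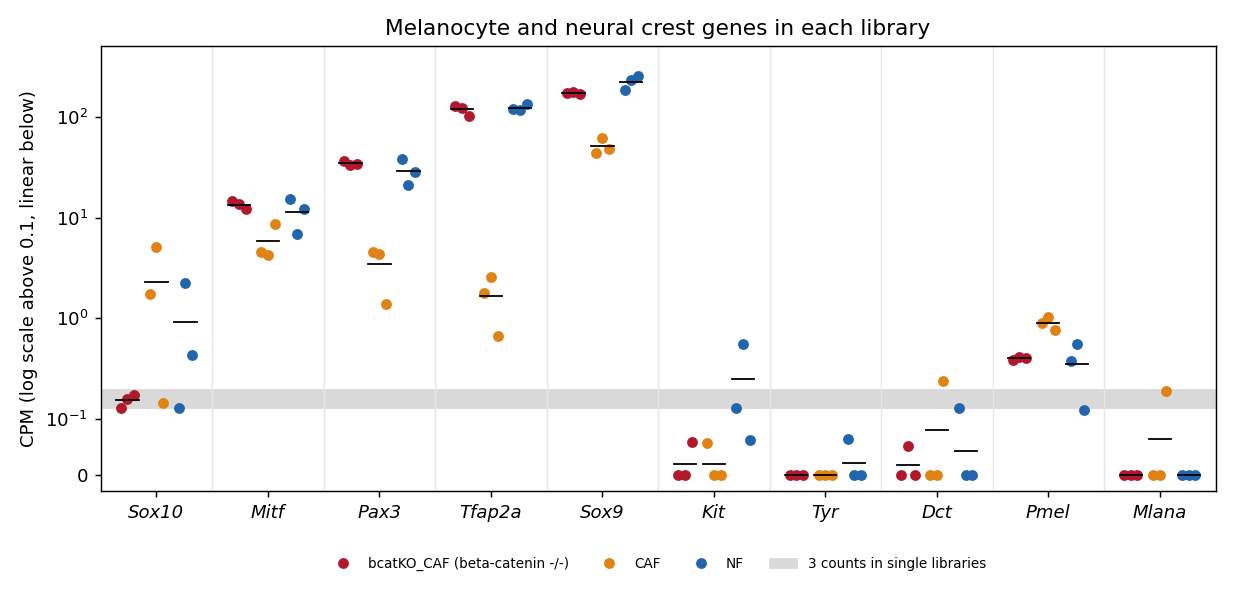
Level of each of the 10 genes in each library, in CPM on an axis that is logarithmic above 0.1 and linear below, with bcatKO_CAF in red, CAF in orange and NF in blue. Points are libraries, black lines are means of 3, and the grey band is the CPM value of 3 counts. Tfap2a lies at or above 104 CPM in bcatKO_CAF and NF libraries and at or under 2.59 CPM in CAF libraries, while Kit, Tyr, Dct and Mlana lie near 0 in most libraries.

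Tyr encodes tyrosinase, the enzyme that starts melanin synthesis, and Dct encodes dopachrome tautomerase, which acts later in the same pathway. With Tyrp1, the related enzyme gene that was not among the 10, they are textbook targets of Mitf, which binds the M-box, TCATGTG. Their promoters, 250 bases before to 50 bases after the annotated start, are shown because they carry this element and because the genes they drive gave almost no counts. The sequences are from RefSeq on GRCm38.p6, 5′ to 3′ on the strand of the gene, and capitals mark TCATGTG or, where it lies on the other strand, CACATGA. Tyr is at chr7:87493463-87493762 on the minus strand, Dct at chr14:118052197-118052496 on the minus strand and Tyrp1 at chr4:80833963-80834262 on the plus strand.
Tyr: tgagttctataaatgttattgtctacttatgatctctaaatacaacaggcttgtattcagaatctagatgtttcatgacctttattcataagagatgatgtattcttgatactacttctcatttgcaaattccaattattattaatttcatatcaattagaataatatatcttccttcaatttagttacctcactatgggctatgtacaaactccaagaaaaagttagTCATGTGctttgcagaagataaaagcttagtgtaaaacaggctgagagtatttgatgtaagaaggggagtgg
Dct: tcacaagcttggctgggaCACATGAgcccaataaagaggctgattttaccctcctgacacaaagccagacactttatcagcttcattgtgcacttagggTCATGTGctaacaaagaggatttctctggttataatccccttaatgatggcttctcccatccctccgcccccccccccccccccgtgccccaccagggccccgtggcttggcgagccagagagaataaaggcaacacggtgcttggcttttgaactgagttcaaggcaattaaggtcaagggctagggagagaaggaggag
Tyrp1: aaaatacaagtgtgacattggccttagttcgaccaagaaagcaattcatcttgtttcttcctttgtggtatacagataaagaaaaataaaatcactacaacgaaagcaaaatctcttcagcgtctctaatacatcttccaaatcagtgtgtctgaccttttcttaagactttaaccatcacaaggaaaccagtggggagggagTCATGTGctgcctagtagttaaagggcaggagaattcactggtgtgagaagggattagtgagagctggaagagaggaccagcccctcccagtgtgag
The element occurs at 1 place in the Tyr window, at 2 places in the Dct window, once on each strand, and at 1 place in the Tyrp1 window. Among 32851 promoter windows of 300 bases, 3.77% held TCATGTG on either strand. RefSeq windows were matched for 5 of the 10 genes, 9 windows in all, and those of Mitf, Tfap2a and Kit held neither TCATGTG nor the shorter CATGTG, which lies within it, nor CACGTG. Of all windows, 14.2% held CATGTG and 7.15% held CACGTG. A match of letters is a description and does not show binding.

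Tyr gave 0 counts in every bcatKO_CAF and CAF library and 1 count in NF, in replicate 1. Dct gave 0, 1 and 0 counts in bcatKO_CAF replicates 1 to 3, 0, 0 and 5 counts in CAF and 2, 0 and 0 counts in NF. Mlana, which encodes the melanosomal protein MART-1, gave 4 counts in CAF replicate 3 and 0 in the other libraries. Most of the counts of Dct and all of those of Mlana thus sat in CAF replicate 3, which also held all 5 counts of Tyrp1. Between CAF and NF the ratio of Dct counts, scaled for depth, was 2.39 with an exact binomial interval from 0.391 to 25.1, so no difference was detectable at this depth. Intervals and floors of this kind cover counting error only. Without the filter on low values, the edgeR adjusted p for CAF against NF was 0.534 for Tyr, 0.692 for Dct and 0.298 for Mlana. CAF replicate 3 differed from the other CAF libraries in further genes. It held 152 counts of Krt5 and 117 of Krt14, keratins of basal skin epithelium, against 10 and 16 of Krt5 and 7 and 7 of Krt14 in CAF replicates 1 and 2. It held 291 counts of Ednrb, the endothelin receptor of melanoblasts and other crest cells, against 58 and 74 in the other CAF libraries. Some other keratin and crest genes were instead lowest in this library. Krt18 gave 70, 77 and 24 counts in CAF replicates 1 to 3, and Krt19 gave 556, 639 and 301. Of crest genes, Sox10 gave 31, 98 and 3 counts, Pax3 82, 84 and 29, and Ngfr 126, 392 and 23. Whether the pigment transcripts and the Krt5 and Krt14 counts of CAF replicate 3 have a shared source was not tested.

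Pmel encodes the protein that forms the fibrils on which melanin is laid down, and it was the only pigment gene of the 10 with counts in every library. It gave 6, 8 and 7 counts in bcatKO_CAF, 16, 20 and 16 in CAF, and 6, 13 and 2 in NF. The CAF libraries were all higher than those of both other groups, although all 9 values were low. Scaled levels averaged 0.402 ± 0.015 CPM in bcatKO_CAF, 0.899 ± 0.136 CPM in CAF and 0.353 ± 0.217 CPM in NF (SD, n = 3 each). Pmel passed the filter through the CAF libraries. The log2 fold change was -1.15 ± 0.47 (SE) for bcatKO_CAF against CAF, where the quasi-likelihood test of edgeR gave an adjusted p of 0.0749, and 1.29 ± 0.47 for CAF against NF (adjusted p 0.0546), so neither passed 0.05. CAF against NF passed with limma-voom (adjusted p 0.0412) and with edgeR without NF replicate 2 (0.0284), and a fit of only the 6 libraries compared gave 0.0211 for bcatKO_CAF against CAF. Pmel occupies positions 128704195 to 128720238 of chromosome 10 (GRCm38), where 4.6% of its exon length overlaps Dgka, a diacylglycerol kinase gene on the other strand, and no source used here gives the strand setting of the counting. Dgka averaged 13.3 CPM in bcatKO_CAF, 24.2 CPM in CAF and 13.5 CPM in NF, the same order of CAF above both others, and how far its reads entered the Pmel counts was not tested.

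Kit encodes the receptor tyrosine kinase that melanoblasts and mast cells need to survive. It gave 0, 0 and 1 counts in bcatKO_CAF, 1, 0 and 0 in CAF, and 2, 13 and 1 in NF. NF replicate 2 thus held most of all Kit counts. Between CAF and NF the depth-scaled ratio of counts was 0.0597, with an exact binomial interval from 0.00142 to 0.384, but the interval leaves out the spread between libraries, and without the filter the edgeR adjusted p was 0.069. NF replicate 2 also had the most counts of mast cell protease genes. It held 34 counts of the tryptase gene Tpsb2 and 16 of the chymase gene Cma1, against 0 of both in NF replicate 1, and 2 of Tpsb2 and 0 of Cma1 in NF replicate 3. Over 8 mast cell markers the summed level was between 0.0519 and 0.514 CPM in bcatKO_CAF, between 0.828 and 1.79 CPM in CAF, and 0.317, 3.03 and 0.123 CPM in NF replicates 1 to 3. Ms4a2, a subunit of the IgE receptor, made up most of the CAF sum, and without it the sum was between 0.0519 and 0.514 CPM in bcatKO_CAF, between 0.056 and 0.239 CPM in CAF and between 0.123 and 2.99 CPM in NF. Tpsb2, Tpsab1, Mcpt4, Fcer1a and Ms4a2 were at 0 in all bcatKO_CAF libraries, Cpa3, Tpsb2, Tpsab1 and Fcer1a in all CAF libraries, and Fcer1a in all NF libraries. Their part in the Kit counts was not tested.

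**Figure D2:**
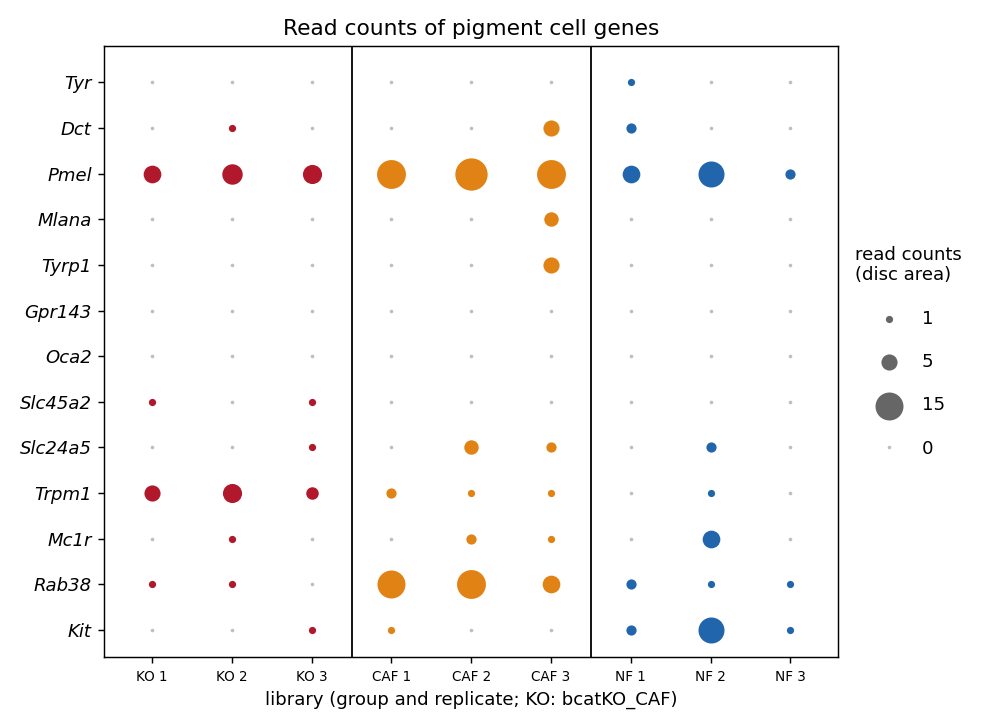
Read counts of 13 pigment cell genes (rows) in the 9 libraries (columns, bcatKO_CAF as KO, then CAF and NF), with the area of a disc in proportion to the count and a small grey point where it was 0. No disc exceeds 20 counts, genes other than Pmel, Rab38 and Kit stay at or under 7 counts in every library, and CAF replicate 3 alone shows Mlana and Tyrp1.

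Of 16 further melanosome and pigment genes, 8 were tested. Pigment-specific members were absent or sparse: Gpr143, a receptor of the melanosome membrane, and Oca2, a melanosomal transporter, gave 0 counts in all 9 libraries. Among the untested members, Rab38 gave 1, 1 and 0 counts in bcatKO_CAF, 15, 16 and 6 in CAF, and 2, 1 and 1 in NF. Trpm1 gave 5, 7 and 3 counts in bcatKO_CAF, 2, 1 and 1 in CAF, and 0, 1 and 0 in NF. The changed members among the 8 tested belong to organelle transport and lysosomal biology that other cells share. Mlph, an adaptor that ties melanosomes to myosin, averaged 9.61 ± 4.08 CPM in bcatKO_CAF, 1.08 ± 0.232 CPM in CAF and 17.9 ± 10.4 CPM in NF. It fell in CAF relative to NF (log2 fold change -4.05 ± 0.58, adjusted p 5e-04) and rose in bcatKO_CAF relative to CAF (3.15 ± 0.57, adjusted p 0.00179). Rab27a, the small GTPase that recruits Mlph to melanosomes and also serves secretion in other cells, had the opposite order, with 0.3 ± 0.189 CPM in bcatKO_CAF, 2.77 ± 0.426 CPM in CAF and 0.363 ± 0.0201 CPM in NF. Rab27a passed the filter on low values only through the CAF libraries, so it had to differ from the other groups, and its levels are given with no test. Gpnmb, a glycoprotein of melanosomes and of macrophage lysosomes, averaged 685 ± 177 CPM in bcatKO_CAF and 109 ± 59.9 CPM in CAF and rose by 2.65 ± 0.85 on the log2 scale (adjusted p 0.0304). That call was lost when CAF replicate 1, CAF replicate 2 or any bcatKO_CAF library was left out, with adjusted p between 0.0533 and 0.113. In NF, Gpnmb was 995, 166 and 70.4 CPM, the high value being that of NF replicate 1. The median log2 fold change of the 8 tested genes was -0.24 for CAF against NF and 0.19 for bcatKO_CAF against CAF, beside -0.04 and -0.01 over all tested genes. Both medians include Rab27a and are given as a description only.

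Mitf, the central regulator of melanocyte identity, is also expressed from other promoters in osteoclasts, mast cells, retinal pigment epithelium and heart, and these isoforms are counted together here. It lies on chromosome 6 from 97807052 to 98021349 (GRCm38). It measured 14.7, 13.6 and 12.3 CPM in bcatKO_CAF replicates 1 to 3, 4.54, 4.25 and 8.74 CPM in CAF, and 15.2, 6.95 and 12.1 CPM in NF. The bcatKO_CAF libraries were all higher than the CAF libraries, and CAF replicate 3 reached into the range of NF. Mitf rose in bcatKO_CAF relative to CAF by 1.21 ± 0.35 on the log2 scale, which is 2.31-fold, with an adjusted p of 0.0203. The call was lost without CAF replicate 1, CAF replicate 2, bcatKO_CAF replicate 1 or bcatKO_CAF replicate 2, with adjusted p between 0.0518 and 0.0785. Against NF, the CAF value was -0.96 ± 0.35 with an adjusted p of 0.0551, and it passed 0.05 with DESeq2 at 0.0319, with total-count scaling at 0.0287, without the filter at 0.0338, without CAF replicate 3 at 0.0155 and without NF replicate 2 at 0.0185. Of its relatives in the MiT/TFE family of lysosomal and melanosomal regulators, Tfe3 averaged 69.3 ± 6.32 CPM in bcatKO_CAF, 73.3 ± 7.56 CPM in CAF and 83.2 ± 11 CPM in NF, and neither it nor Tfeb passed the test in any of these comparisons. Tfec, a family member known from macrophages, gave 1, 1 and 0 counts in bcatKO_CAF, 55, 53 and 23 in CAF, and 0, 5 and 3 in NF. It passed the filter only through the CAF libraries, and no test is given for it.

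Tfap2a encodes the transcription factor AP-2alpha, which acts early at the border of the neural plate. It measured 130.3, 124 and 104 CPM in bcatKO_CAF, 1.79, 2.59 and 0.668 CPM in CAF, and 121, 117 and 135 CPM in NF. The CAF libraries were all far below the libraries of both other groups, whose values overlapped. Tfap2a rose 71.1-fold in bcatKO_CAF relative to CAF (log2 fold change 6.15 ± 0.39, adjusted p 4.97e-06) and fell 74-fold in CAF relative to NF (-6.21 ± 0.39, adjusted p 4.78e-06). Between bcatKO_CAF and NF the difference was -0.06 ± 0.30 (adjusted p 0.945). The gene is on chromosome 13 from 40715302 to 40738376 (GRCm38). Part of its exons, 7.8% of their length, overlaps the antisense transcript Gm26688, which averaged 0.601, 0.0187 and 1.3 CPM in bcatKO_CAF, CAF and NF. Its close relative Tfap2b, known from crest derivatives and kidney, had the same order of groups. Tfap2b averaged 107 ± 14.3 CPM in bcatKO_CAF, 0.225 ± 0.0339 CPM in CAF and 121 ± 41.4 CPM in NF, with log2 fold changes of 8.85 ± 0.37 for bcatKO_CAF against CAF (adjusted p 6.7e-07) and -9.03 ± 0.37 for CAF against NF (adjusted p 5.84e-07). Skin epithelium also uses Tfap2a. Over 12 epithelial and keratinocyte markers the summed level was between 2.25 and 3.48 CPM in bcatKO_CAF, between 32.9 and 41.3 CPM in CAF and between 3.55 and 9.77 CPM in NF. Krt19, a keratin of simple epithelia, made up 31.1, 33.1 and 14.4 CPM of the CAF sums, and without it the sum was between 2.18 and 3.48 CPM in bcatKO_CAF, between 7.39 and 18.5 CPM in CAF and between 3.55 and 9.72 CPM in NF, where CAF and NF overlap. The part of epithelial cells in the Tfap2a values was not tested. Krt14, Krt8, Trp63 and Esrp1 were at 0 in all bcatKO_CAF libraries, and none of the 12 was at 0 in all libraries of CAF or of NF.

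Pax3, the paired-box factor that activates Mitf in melanoblasts, measured 36.5, 33.6 and 34 CPM in bcatKO_CAF, 4.59, 4.35 and 1.38 CPM in CAF, and 38.5, 21.2 and 28.7 CPM in NF. Again all CAF libraries were below all libraries of the other groups. Pax3 rose 10.1-fold in bcatKO_CAF relative to CAF (log2 fold change 3.34 ± 0.41, adjusted p 0.000211) and fell 8.57-fold in CAF relative to NF (-3.10 ± 0.41, adjusted p 3e-04). For bcatKO_CAF against NF the value was 0.24 ± 0.37 with an adjusted p of 0.776. It lies on chromosome 1 from 78101267 to 78197134 (GRCm38).

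Sox9, which specifies crest cells and later cartilage, had the highest CPM of the 10 genes in every library. It measured 174, 179 and 172 CPM in bcatKO_CAF, 43.8, 61.6 and 48.6 CPM in CAF, and 188, 234 and 256 CPM in NF. None of the 3 groups overlapped with another. Sox9 rose 3.41-fold in bcatKO_CAF relative to CAF (log2 fold change 1.77 ± 0.17, adjusted p 5.43e-05) and fell 4.4-fold in CAF relative to NF (-2.14 ± 0.17, adjusted p 1.91e-05). All 3 bcatKO_CAF libraries were below all 3 NF libraries, but the difference of -0.37 ± 0.17 did not pass the test (adjusted p 0.601). Sox9 is on chromosome 11 from 112782224 to 112787760 (GRCm38). Of 8 chondrocyte markers 2 were tested. Their summed level was between 0.924 and 1.41 CPM in bcatKO_CAF, between 3.47 and 4.04 CPM in CAF and between 0.431 and 2.52 CPM in NF. Matn3, a cartilage matrix protein, made up 2.02, 1.86 and 1.96 CPM of the CAF sums, and without it the sum was between 0.924 and 1.16 CPM in bcatKO_CAF, between 1.46 and 2.17 CPM in CAF and between 0.431 and 2.52 CPM in NF, where CAF and NF overlap. The part of cartilage cells in the Sox9 values was not tested. Col9a1 was at 0 in every library, Snorc in all CAF libraries, and Col2a1, the cartilage collagen gene that Sox9 activates, gave at most 5 counts in bcatKO_CAF and CAF libraries and at most 10 in NF libraries.

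Sox10, which maintains crest cells and is kept in melanocytes and Schwann cells, varied widely among the libraries of CAF and of NF. It gave 2, 3 and 3 counts in bcatKO_CAF, 31, 98 and 3 in CAF, and 2, 52 and 7 in NF. In CPM this was 0.129, 0.156 and 0.173 in bcatKO_CAF, 1.74, 5.07 and 0.143 in CAF, and 0.127, 2.22 and 0.431 in NF. CAF replicates 1 and 2 and NF replicate 2 were high, and CAF replicate 3 and NF replicate 1 were as low as the bcatKO_CAF libraries. Sox10 passed the filter through 2 CAF libraries and 1 NF library, and its bcatKO_CAF counts were at or under the floor of 3. It fell in bcatKO_CAF relative to CAF (log2 fold change -3.86 ± 1.32, edgeR adjusted p 0.0388). The call was lost with limma-voom (adjusted p 0.195) and when CAF replicate 1, CAF replicate 2 or any bcatKO_CAF library was left out (adjusted p between 0.0634 and 0.17), and an exact two-sided permutation test over the 6 libraries gave p = 0.3. Without CAF replicate 2 the value was -2.56. The permutation test cannot go below 0.1 with 3 libraries against 3. The log2 fold change was 1.26 ± 1.06 for CAF against NF (adjusted p 0.384) and for bcatKO_CAF against NF -2.60 ± 1.34 (adjusted p 0.601). Without CAF replicate 2 the CAF against NF value was -0.04, and without NF replicate 2 it was 3.01 with an adjusted p of 0.0925. Sox10 occupies positions 79154908 to 79165240 of chromosome 15 (GRCm38).

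Of the genes of crest-derived glia, Erbb3 and Ngfr were highest in the same CAF and NF libraries as Sox10, while others were not. Erbb3, the neuregulin receptor of crest cells and Schwann cells, gave 22, 16 and 18 counts in bcatKO_CAF, 51, 111 and 22 in CAF, and 28, 85 and 35 in NF. Ngfr, the low-affinity neurotrophin receptor of crest cells, chosen after its values were seen, gave 33, 58 and 76 counts in bcatKO_CAF, 126, 392 and 23 in CAF, and 62, 414 and 4 in NF. In CAF and NF the library with the most Sox10 counts was also the one with the most counts of both Erbb3 and Ngfr. In bcatKO_CAF both were detected with Sox10 at or under the floor of 3 counts, and NF replicate 3, with more Sox10 than NF replicate 1, had less Ngfr. S100b, a calcium-binding protein of glia, was likewise highest in NF replicate 2, at 893 counts, but in CAF it was highest in replicate 1, at 133 counts against 93 and 24, and in bcatKO_CAF it gave 161, 298 and 338 counts. Over 10 Schwann cell and glia markers, of which 6 were tested, the summed level was between 302 and 307 CPM in bcatKO_CAF, between 26.9 and 36.8 CPM in CAF and between 248 and 557 CPM in NF. In bcatKO_CAF and NF most of that sum was Sox2, a factor of neural progenitors and early glia, which averaged 282 ± 2.87 CPM in bcatKO_CAF, 0.477 ± 0.348 CPM in CAF and 385 ± 143 CPM in NF. Without Sox2 the sum was between 17.6 and 27.8 CPM in bcatKO_CAF, between 26.8 and 36.2 CPM in CAF and between 11.3 and 60.7 CPM in NF. These ranges overlap. Sox2 rose in bcatKO_CAF relative to CAF by 9.21 ± 0.56 on the log2 scale (adjusted p 3.78e-06) and fell in CAF relative to NF (-9.66 ± 0.57, adjusted p 3.07e-06). Mbp, a myelin gene that is also transcribed in a longer form outside glia, had the opposite order, with 0.116 ± 0.0124, 9.21 ± 4.32 and 0.288 ± 0.246 CPM in bcatKO_CAF, CAF and NF. It fell by 6.24 ± 0.64 in bcatKO_CAF relative to CAF (adjusted p 7.4e-05) and rose by 5.02 ± 0.57 in CAF relative to NF (adjusted p 0.000134), or by 5.89 without NF replicate 1. It passed the filter through the 3 CAF libraries and 1 NF library. Within CAF, Mbp was highest in replicate 3, at 294 counts against 141 and 110, where Sox10 was lowest. Egr2, another of the 10 markers, averaged 4.18 ± 0.936, 12.1 ± 2.94 and 6.31 ± 4.23 CPM in bcatKO_CAF, CAF and NF. It fell by 1.53 ± 0.45 on the log2 scale in bcatKO_CAF relative to CAF (edgeR adjusted p 0.0216). That call was lost without CAF replicate 1, CAF replicate 2, bcatKO_CAF replicate 1 or bcatKO_CAF replicate 2 (adjusted p between 0.062 and 0.0772). None of the 10 glial markers was at 0 throughout a group, and the part of glial cells in the Sox10 values was not tested.

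**Figure D3:**
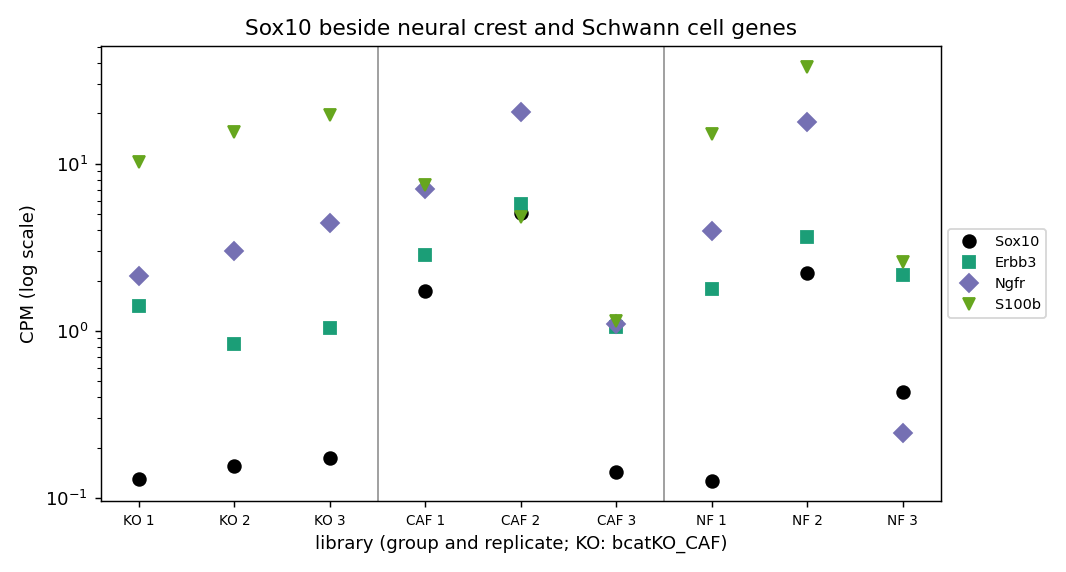
Levels of Sox10, Erbb3, Ngfr and S100b in each of the 9 libraries, in CPM on a logarithmic axis, with bcatKO_CAF (KO), CAF and NF from left to right. Sox10 is highest in CAF replicate 2 at 5.07 CPM and NF replicate 2 at 2.22 CPM, the libraries of their groups in which Erbb3 and Ngfr are highest too.

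For bcatKO_CAF against CAF, 4 of the 6 tested genes rose (Mitf, Pax3, Tfap2a and Sox9), against a background of 21.5% of all tested genes called higher, and 1 fell (Sox10), against 22.7% called lower. Called in either direction were 44.2% of all genes. For CAF against NF, 3 of the 6 fell (Pax3, Tfap2a and Sox9), where 19.9% of all genes were called lower, and none rose, where 20.0% were called higher. Calls in either direction were 39.9% of all genes there. With total counts as the scaling, the split over all genes was 3743 higher and 2686 lower for bcatKO_CAF against CAF, where TMM gave 3079 and 3253, and 2440 higher and 3701 lower for CAF against NF, where TMM gave 2866 and 2847. For bcatKO_CAF against NF, edgeR called 0 of the 6 and 0% of all genes, and none of the 6 had an unadjusted p under 0.05, as 702 of all tested genes did. DESeq2 called 6 genes and limma-voom 0 in that comparison, none of them among the 6. Without NF replicate 1, 2659 genes, 18% of those tested, were called between bcatKO_CAF and NF, and still none of the 6. The first 2 comparisons share the CAF libraries, so their opposite signs are not independent of each other.

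Of the 6 tested genes, 4 (Mitf, Pax3, Tfap2a and Sox9) had all bcatKO_CAF libraries above all CAF libraries, as had 32.4% of all tested genes, and 1 (Pmel) had them all below, as had 33.3%. All CAF libraries were below all NF libraries for 3 (Pax3, Tfap2a and Sox9), against 23.6% of all genes, and above them for 1 (Pmel), against 24.6%. All bcatKO_CAF libraries were below all NF libraries for 1 (Sox9), against 3.64% of all genes, and above them for none, against 3.23%. In either direction, separation without overlap was found in 65.7%, 48.2% and 6.87% of all genes in these 3 comparisons. The median log2 fold change of the 6 was 1.49 for bcatKO_CAF against CAF, -1.55 for CAF against NF and 0.04 for bcatKO_CAF against NF, beside -0.01, -0.04 and -0.02 over all tested genes. The 4 untested genes are outside these medians.

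**Figure D4:**
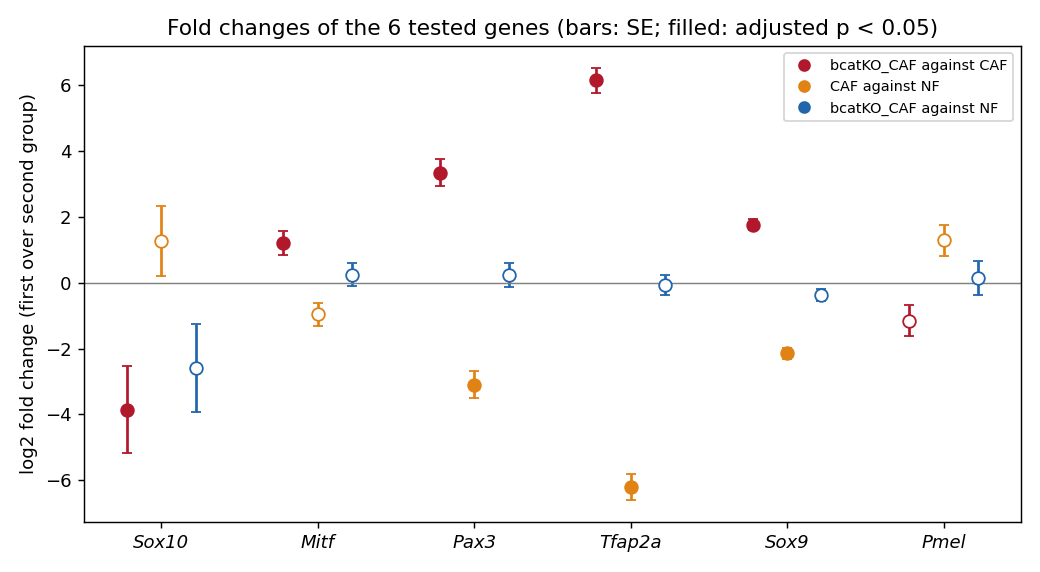
Log2 fold changes of the 6 tested genes in 3 comparisons (red, bcatKO_CAF against CAF; orange, CAF against NF; blue, bcatKO_CAF against NF), with bars of 1 standard error and filled points for adjusted p under 0.05. The red and orange points of Tfap2a, Pax3 and Sox9 are filled and lie on opposite sides of 0, and all blue points are open.

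Divided by exon length, so that genes can be compared with each other, mean levels in bcatKO_CAF ran from Sox9 at 42.4 CPM per kb through Tfap2a at 24.3, Pax3 at 5.61, Mitf at 2.18 and Pmel at 0.175 to Sox10 at 0.05 CPM per kb, and no 2 neighbours in this order overlapped between libraries. In CAF, Sox9 led at 12.4 CPM per kb. The other 5 followed between 0.343 for Tfap2a and 0.943 for Mitf, and each overlapped its neighbour in the order. In NF the order was Sox9 at 54.7, Tfap2a at 25.3, Pax3 at 4.76 and Mitf at 1.84 CPM per kb, with no overlap among these 4, and then Sox10 at 0.303 and Pmel at 0.154 CPM per kb, which overlapped. Kit, Dct, Mlana and Tyr stayed at or under 0.0602 CPM per kb in every group mean.

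Across the 9 libraries, the genes whose log2 CPM followed each member most closely were Plxnb3 (Pearson r = 0.98), Jmjd6 (0.943) and Erbb3 (0.938) for Sox10, and Srgap2 (0.983), Chd6 (0.979) and Sema5a (0.977) for Mitf. They were Spp1 (0.995), Kmt5a (0.994) and Ptprj (0.991) for Pax3, Kcnn4, Ngef and Arl4d (0.998 each) for Tfap2a, and Stn1 (0.995), Spred2 (0.995) and Tusc2 (0.994) for Sox9. Among 12700 genes, those at r of 0.95 or more numbered 1 for Sox10, 10 for Mitf, 313 for Pax3, 531 for Tfap2a and 410 for Sox9. The 9 points share their groups, so a gene that differs between CAF and the other groups takes a high r from that alone.

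Of 16 further neural crest factors and receptors, 13 were tested, and their changes went in both directions. For bcatKO_CAF against CAF, 5 rose (Foxd3, Msx1, Tfap2b, Sox5 and Sox6) and 5 fell (Snai1, Snai2, Msx2, Zic1 and Ets1), with a median log2 fold change of -0.39, where 21.5% of all tested genes were called higher and 22.7% lower. In CAF relative to NF, 5 rose (Snai1, Snai2, Msx2, Zic1 and Ets1) and 4 fell (Msx1, Tfap2b, Sox5 and Sox6), with a median of 0.37. Of all genes, 20.0% were called higher and 19.9% lower there. For bcatKO_CAF against NF none was called, where edgeR called 0% of all tested genes. The counts and medians of the first 2 comparisons include Msx2, which passed the filter only through the CAF libraries. Sox5, an SoxD factor of crest and cartilage, averaged 21.9 ± 2.83 CPM in bcatKO_CAF, 0.751 ± 0.288 CPM in CAF and 30.3 ± 15.6 CPM in NF, with adjusted p of 3.59e-05 for bcatKO_CAF against CAF and 2.32e-05 for CAF against NF. Foxd3, a winged-helix factor of early crest cells, averaged 6.34 ± 3.03 CPM in bcatKO_CAF and 0.942 ± 1.04 CPM in CAF (log2 fold change 2.74 ± 0.83, adjusted p 0.0234), a call that was lost without CAF replicate 1, CAF replicate 3 or bcatKO_CAF replicate 3, and the value was 4.17 without CAF replicate 2. Snai2, the zinc-finger repressor of crest migration and mesenchymal transition, was 16.9, 22.7 and 22.9 CPM in bcatKO_CAF, 77.7, 79.7 and 79.8 CPM in CAF and 27.4, 6.74 and 6.4 CPM in NF. It fell by 1.92 ± 0.49 in bcatKO_CAF relative to CAF (adjusted p 0.0113) and rose by 2.56 ± 0.51 in CAF relative to NF (adjusted p 0.00315), or by 3.60 without NF replicate 1. Zic1, a factor of the neural plate border, gave 0, 20 and 0 counts in bcatKO_CAF, 386, 393 and 107 in CAF and 4, 0 and 0 in NF, and passed the filter through the 3 CAF libraries and bcatKO_CAF replicate 2. Msx2, a homeobox target of BMP signalling, gave 42, 24 and 48 counts in CAF and 0 in NF, at least 36.3-fold higher when NF is set at the floor of 3 counts for the whole group, and it passed the filter only through the CAF libraries, so that its calls are no support. Twist1, a mesenchymal factor of cranial crest, averaged 51.7 ± 0.164 CPM in bcatKO_CAF, 58.2 ± 5.84 CPM in CAF and 51.1 ± 7.8 CPM in NF and did not pass the test in any comparison. In CAF against NF, the calls of Snai1, Sox6 and Ets1 depended on single libraries: Snai1 was lost without CAF replicate 2 or NF replicate 2, Sox6 without CAF replicate 2, CAF replicate 3 or NF replicate 2, and Ets1 without CAF replicate 1 or NF replicate 3, with adjusted p from 0.0508 to 0.222 in these and other settings. For bcatKO_CAF against CAF, Ets1 was lost with total-count scaling, without the filter, and without CAF replicate 1 or any bcatKO_CAF library (adjusted p between 0.0588 and 0.152), and Zic1 with DESeq2 (0.0505).

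**Figure D5:**
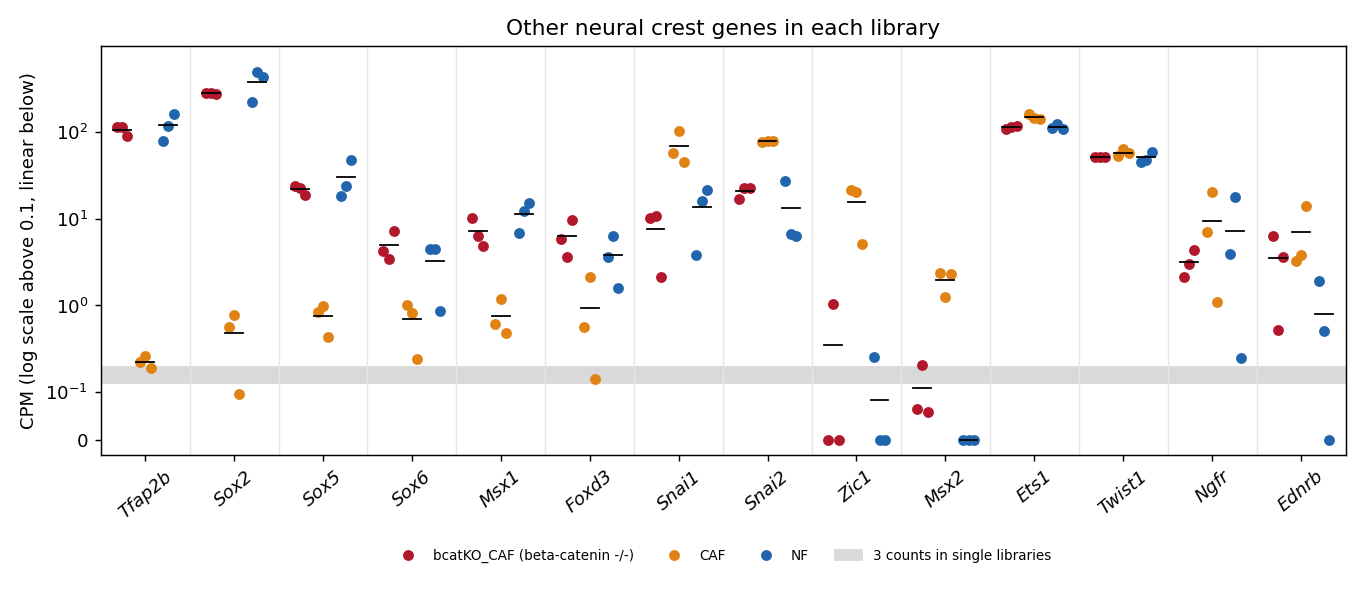
Levels of 14 other neural crest and crest-receptor genes in each library, in CPM on an axis that is logarithmic above 0.1 and linear below, with bcatKO_CAF in red, CAF in orange and NF in blue, black lines at means of 3 and a grey band at 3 counts. Tfap2b, Sox2 and Sox5 are low in all 3 CAF libraries, Snai2, Zic1 and Msx2 are high in them, and Twist1 lies at 45.1 to 64.3 CPM throughout.

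Signals by which surrounding cells act on melanocytes were also present in these fibroblasts. Of 10 ligand and receptor genes, 7 were tested, and 3 rose (Edn1, Asip and Fgf2) and 1 fell (Met) in CAF relative to NF, while 2 rose (Kitl and Met) and 3 fell (Edn1, Asip and Fgf2) in bcatKO_CAF relative to CAF. Of all tested genes, 20.0% were called higher and 19.9% lower in CAF relative to NF, and 21.5% higher and 22.7% lower in bcatKO_CAF relative to CAF. Kitl, the ligand of Kit, was 216, 191 and 269 CPM in bcatKO_CAF, 55.2, 27.2 and 41.2 CPM in CAF and 253, 106 and 29.4 CPM in NF. It rose 5.48-fold in bcatKO_CAF relative to CAF (log2 fold change 2.45 ± 0.63, adjusted p 0.0112), with an adjusted p of 0.0547 without CAF replicate 2. Edn1, an endothelin that stimulates pigment cells, averaged 0.212 ± 0.0686 CPM in bcatKO_CAF, 11.8 ± 2.02 CPM in CAF and 0.488 ± 0.49 CPM in NF, with adjusted p of 0.000195 for bcatKO_CAF against CAF and 0.000423 for CAF against NF, and passed the filter through the 3 CAF libraries and 1 NF library. Asip, the agouti protein that antagonises the melanocortin receptor, gave 13, 13 and 30 counts in CAF and 0 in every bcatKO_CAF and NF library. That is at least 16.8-fold lower in bcatKO_CAF than in CAF, and at least 17.8-fold higher in CAF than in NF. For these values the group at 0 was set at a floor of 3 counts in all. However, Asip passed the filter only through the CAF libraries, so that its calls, which the counts of calls above include, are no support. Of its exon length, 12.6% overlaps Raly, a gene on the same strand, and how far Raly reads entered the Asip counts was not tested. Met, the receptor of hepatocyte growth factor, averaged 227 ± 13.3 CPM in bcatKO_CAF, 52 ± 8.88 CPM in CAF and 181 ± 32.6 CPM in NF (adjusted p 2.78e-05 for bcatKO_CAF against CAF and 6.4e-05 for CAF against NF). Edn3, the endothelin that melanoblasts require, gave 0 counts in all 9 libraries.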

How the data were processed

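Total RNA of 9 fibroblast samples was sequenced. The deposited values are whole-number read counts per Ensembl gene, not normalised, and 0 cells differed between the single files and the series table. The tools were bcl2fastq, TopHat and edgeR and the build mm10, per the submitters' processing notes, without versions. The read counter, the strand setting and the annotation: not given in the sources used here. Source and genotype labels gave the groups, and record order gave the replicate numbers. Symbols were matched for 51719 of 51912 genes with GENCODE M21 (GRCm38), where Asip is listed as a. Gm42418, a transcript over ribosomal RNA, held 1.01% to 5.34% of counts.

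Genes were filtered with filterByExpr, scaled by TMM and tested in edgeR 4.0.16 (R 4.3.3) with the quasi-likelihood test, with all 9 samples in 1 fit and group as the only term. P-values were adjusted over 14314 genes (Benjamini-Hochberg), and 0.05 was the threshold of a call. Standard errors came from the F statistic. Means carry the SD of 3 libraries, levels per kb use merged exons, and ratios of sparse counts carry 95% exact binomial intervals. The members and the 10 further lists (113 genes) were chosen with earlier results of these data known.

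All 10 members were named. The naming rule also allowed called members of each list where a direction held at most 5, otherwise the 4 largest changes with mean CPM of at least 1. It further allowed the 2 most abundant members of each list. The 3 genes most like each member with mean CPM of at least 1 were named (Pearson r of log2(CPM + 0.5), model names left out). Not every gene that the rule allowed was named, and Cd63, Pdgfrb and Col1a2 are among those left out. Ngfr, Ednrb, Krt5, Krt14, Tpsb2, Cma1, Dgka, Gm26688, Raly, Col2a1, Twist1, Tfeb, Tyrp1, Rab38, Trpm1 and the genes at 0 were added after seeing values, as were the list sums without Krt19, Matn3, Ms4a2 or Sox2. Vim, Pdgfra, Fap and S100a4 were also named outside this rule. The alternatives tried were RLE and total-count scaling, no filter, a CPM minimum of 1 in 3 samples, limma-voom (limma 3.58.1), DESeq2 1.42.0, only the 6 samples compared, counts without Gm42418 and leaving out each library. Scripts were tested on simulated data.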

Additional observations from a re-analysis of the deposited data

How the results depend on the processing

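The calls and directions of Tfap2a, Pax3 and Sox9 were the same under all 14 alternatives for bcatKO_CAF against CAF and for CAF against NF. Over all 3 comparisons, 223 fold changes of tested members recomputed under an alternative kept direction and side of the threshold, 8 gained a call, 10 lost one and 5, none of them called, changed sign. Leaving out single libraries, Sox10 for CAF against NF ran from -0.04 (without CAF replicate 2) to 3.01 (without NF replicate 2). For bcatKO_CAF against NF, Mitf ran from -0.01 (without NF replicate 2) to 0.53, Pmel from -0.24 (without NF replicate 3) to 0.67, and Tfap2a from -0.12 to 0.04, where it was above 0 without bcatKO_CAF replicate 3 or, at 0.01, without NF replicate 3. The adjusted p of the 5 values of changed sign ran from 0.924 to 1. Members called for bcatKO_CAF against CAF numbered 5 with all libraries and 3 to 5 when single libraries were left out, and were 3 without CAF replicate 1, CAF replicate 2, bcatKO_CAF replicate 1 or bcatKO_CAF replicate 2. Members called for CAF against NF numbered 3, and 3 to 5 when single libraries were left out, with 5 without NF replicate 2. For bcatKO_CAF against NF, 0 genes were called with all libraries, 1 without the filter, 6 with DESeq2, and 0 to 2659 when single libraries were left out, the last without NF replicate 1. The cause was not tested. Total-count scaling moved the median log2 fold change of all genes from -0.038 to -0.202 for CAF against NF and from -0.013 to 0.124 for bcatKO_CAF against CAF. No paired analysis was possible because the labels carry no replicate numbers. With sums of 16 counts or fewer per group, Kit, Tyr, Dct and Mlana allow no statement about small differences.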

Other observations

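Markers of other cells, in lists read beside the lineage genes, differed between the groups as follows. Krt19, a keratin of simple and stem-cell epithelia, averaged 0.0407 ± 0.0354 CPM in bcatKO_CAF, 26.2 ± 10.3 CPM in CAF and 0.0142 ± 0.0246 CPM in NF. It passed the filter on low values only through the CAF libraries, so no test is given for it. Of 12 epithelial markers 3 were tested, and Krt18 fell in bcatKO_CAF relative to CAF (edgeR adjusted p 0.0186). Krt18, which passed the filter through the 3 CAF libraries and 1 NF library, lost that call without CAF replicate 2, bcatKO_CAF replicate 1 or bcatKO_CAF replicate 2. Of 8 macrophage markers 5 were tested. Cd68, a lysosomal protein of macrophages that other cells also express, averaged 20 ± 2.93 CPM in bcatKO_CAF, 1.34 ± 0.137 CPM in CAF and 28.7 ± 9.07 CPM in NF. It rose in bcatKO_CAF relative to CAF (3.89 ± 0.28, adjusted p 9.96e-06) and fell in CAF relative to NF (-4.41 ± 0.29, adjusted p 5.15e-06). C1qa and Mrc1 also fell in CAF relative to NF (adjusted p 0.0456 and 0.0466), and Csf1r fell in bcatKO_CAF relative to CAF (adjusted p 0.0295), but C1qa and Mrc1 lost the call without any single CAF library and without NF replicate 2 or NF replicate 3, and Csf1r without CAF replicate 1, CAF replicate 2 or any bcatKO_CAF library.

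The single tested mast cell gene of 8, Ms4a2, a subunit of the IgE receptor, gave 0 counts in every bcatKO_CAF library, 31, 14 and 15 in CAF, and 0, 1 and 0 in NF. It was at least 18-fold lower in bcatKO_CAF than in CAF, with bcatKO_CAF set at the floor of 3 counts for the group, while the mast cell proteases were near 0 in CAF. Matn3, a cartilage matrix protein, gave 4, 1 and 0 counts in bcatKO_CAF, 36, 36 and 41 in CAF, and 1, 0 and 0 in NF. Ms4a2 and Matn3 passed the filter only through the CAF libraries, so they had to differ from the other groups and no test is given for them. Of 12 fibroblast markers, all of them tested, 8 fell in bcatKO_CAF relative to CAF, where 22.7% of all tested genes were called lower, and 8 rose in CAF relative to NF, where 20.0% were called higher. Among the 8 that rose, S100a4 (adjusted p 0.0491) lost its call under 8 of 14 alternatives, without any single CAF library, NF replicate 1 or NF replicate 2 among them (adjusted p between 0.0503 and 0.119), and Fap (0.0172) under 3 of 14, without CAF replicate 1 or NF replicate 2 among them (between 0.051 and 0.0666). Col1a1, the main fibrillar collagen gene, averaged 293 ± 51.9 CPM in bcatKO_CAF, 19927 ± 5611 CPM in CAF and 149 ± 66.5 CPM in NF, and the log2 fold changes were -6.09 ± 0.45 for bcatKO_CAF against CAF (adjusted p 1.13e-05) and 7.06 ± 0.47 for CAF against NF (adjusted p 6.07e-06). For bcatKO_CAF against NF, edgeR with all 9 libraries called none of the tested genes in any of the lists. It called 0% of all tested genes in that comparison.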
